A study of Homo sapiens with 9 samples.

Results

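Metallothioneins are small cysteine-rich proteins that bind zinc and copper, and 10 genes of their zinc response were followed here in TC32, a human Ewing sarcoma cell line. They were taken by symbol from the gene tables: the metallothioneins MT1A, MT1E, MT1F, MT1G, MT1H, MT1M, MT1X and MT2A, the zinc sensor MTF1 and the zinc exporter SLC30A1, out of 58233 genes listed. They were chosen with their levels across the groups in view, so their differences under the inhibitor are given as a description, without a test. The data are 9 bulk RNA-seq libraries in 3 groups of 3. Vehicle cells received PBS and then DMSO, Wnt3a cells received the ligand for 28 h with DMSO, and inhibitor cells received Wnt3a for 28 h with SB-505124 added 4 h after the ligand, for the last 24 h. SB-505124 is a small-molecule inhibitor of the TGF-beta type I receptor and its activin relatives. No group received SB-505124 without Wnt3a, so each comparison with the inhibitor is of the inhibitor on top of Wnt3a. No zinc was added according to the labels and no metal was measured, so "zinc response" names a gene group and not a treatment. All libraries come from this 1 cell line, and the labels do not tell whether a group's libraries are separate cultures. The p-values then reflect only library-to-library spread, part or all of which may be technical.

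In the textbook account, free zinc in the cell binds the zinc fingers of the transcription factor MTF1, which then binds metal response elements in the promoters of metallothionein genes and of SLC30A1. Metallothioneins hold zinc and copper through their cysteines, and SLC30A1 in the plasma membrane moves zinc out of the cell, so both lower free zinc. Glucocorticoids, heavy metals and oxidative stress also raise metallothionein RNA in many cells.

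The 8 metallothionein members lie in a cluster on chromosome 16 (hg38), from MT2A at chr16:56608199-56609497 to MT1X at chr16:56682424-56684196. All but MT1G, at chr16:56666731-56668065, are annotated on the plus strand. Each has a coding sequence of 186 bases over 3 exons, with 61 codons before the stop, 20 of them for cysteine. Across the 28 pairs of members the coding sequences were 88.7% to 95.2% identical, with MT1F and MT1X the least alike and MT1G and MT2A the most alike. The coding sequences of MT2A, MT1X and MT1G are shown because they are the 2 most abundant members and the member with the highest fold difference among those with counts in all groups. They come from the GENCODE 29 annotation of GRCh38 (MT2A chr16:56608656-56609354, plus strand; MT1X chr16:56682541-56684049, plus strand; MT1G chr16:56666879-56667993, minus strand), with introns removed, and capitals mark the cysteine codons.
MT2A: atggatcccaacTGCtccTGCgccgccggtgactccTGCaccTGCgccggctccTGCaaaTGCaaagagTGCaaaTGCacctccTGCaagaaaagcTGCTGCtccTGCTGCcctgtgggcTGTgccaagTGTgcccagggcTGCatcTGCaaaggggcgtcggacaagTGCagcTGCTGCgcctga
MT1X: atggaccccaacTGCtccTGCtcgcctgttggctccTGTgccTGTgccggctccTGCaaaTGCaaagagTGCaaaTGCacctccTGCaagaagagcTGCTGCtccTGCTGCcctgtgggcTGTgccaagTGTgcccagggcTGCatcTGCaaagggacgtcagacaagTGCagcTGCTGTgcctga
MT1G: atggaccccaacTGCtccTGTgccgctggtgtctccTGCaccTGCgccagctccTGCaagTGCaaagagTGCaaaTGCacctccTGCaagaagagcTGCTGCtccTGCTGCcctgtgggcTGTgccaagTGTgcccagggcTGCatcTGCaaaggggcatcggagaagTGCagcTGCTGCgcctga
The capitals, several of them in adjacent pairs, show how densely the metal-binding cysteines are spaced. Reads from such similar genes can be shared out wrongly between them: of all 50-base windows of the annotated transcripts, 1.22% in MT1F, 3.02% in MT2A, 16.5% in MT1G and 18.3% in MT1X occurred also in another gene. In MT1X, 273 of its 341 shared windows lie in RP11-343H19.2, a noncoding gene that overlaps it on the same strand and is listed at 0 in all 9 libraries. Values of single metallothioneins are uncertain to that extent, and their sum is given as well.

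Promoter windows from RefSeq (GRCh38.p14, 250 bases before to 50 bases after the start site) were matched for 5 of the 10 members, namely MT2A, MT1H, MT1X, SLC30A1 and MTF1. The core of the metal response element was searched as TGCACNC or TGCGCNC on both strands. It occurred 8 times in MT2A, 8 times in MT1H, 4 times in MT1X, 2 times in SLC30A1 and 0 times in MTF1. Of 34796 RefSeq promoter windows of this length, 29.5% held at least 1 match. As many matches as in MT2A and MT1H were held by 0.0201% of all windows, as many as in MT1X by 0.598%, and as many as in SLC30A1 by 8.60%. The windows of MT2A (chr16:56608334-56608633, plus strand), MT1H (chr16:56669564-56669863, plus strand), MT1X (chr16:56682220-56682519, plus strand) and SLC30A1 (chr1:211579112-211579411, minus strand) are shown because, of the 5 genes with a matched window, theirs differed most between inhibitor and Wnt3a, each 5′ to 3′ along its gene, with every match in capitals (a match on the opposite strand reads as the reverse complement).
MT2A promoter: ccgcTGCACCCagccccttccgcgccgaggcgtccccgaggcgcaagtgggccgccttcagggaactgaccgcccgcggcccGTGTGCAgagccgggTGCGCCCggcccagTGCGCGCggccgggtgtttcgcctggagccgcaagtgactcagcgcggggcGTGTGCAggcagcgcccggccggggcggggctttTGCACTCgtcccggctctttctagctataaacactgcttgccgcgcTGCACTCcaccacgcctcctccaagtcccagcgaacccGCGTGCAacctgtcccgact
MT1H promoter: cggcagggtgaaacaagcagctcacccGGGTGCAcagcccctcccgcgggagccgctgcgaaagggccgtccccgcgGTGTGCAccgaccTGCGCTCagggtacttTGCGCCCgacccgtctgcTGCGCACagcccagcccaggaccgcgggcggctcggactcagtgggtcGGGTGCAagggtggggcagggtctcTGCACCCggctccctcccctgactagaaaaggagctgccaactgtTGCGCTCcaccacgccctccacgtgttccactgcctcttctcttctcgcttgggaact
MT1X promoter: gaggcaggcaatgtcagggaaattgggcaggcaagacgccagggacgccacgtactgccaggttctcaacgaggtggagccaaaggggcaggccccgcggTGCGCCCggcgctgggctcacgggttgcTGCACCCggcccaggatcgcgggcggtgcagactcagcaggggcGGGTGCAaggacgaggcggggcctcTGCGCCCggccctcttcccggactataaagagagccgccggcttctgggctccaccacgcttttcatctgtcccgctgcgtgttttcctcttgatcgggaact
SLC30A1 promoter: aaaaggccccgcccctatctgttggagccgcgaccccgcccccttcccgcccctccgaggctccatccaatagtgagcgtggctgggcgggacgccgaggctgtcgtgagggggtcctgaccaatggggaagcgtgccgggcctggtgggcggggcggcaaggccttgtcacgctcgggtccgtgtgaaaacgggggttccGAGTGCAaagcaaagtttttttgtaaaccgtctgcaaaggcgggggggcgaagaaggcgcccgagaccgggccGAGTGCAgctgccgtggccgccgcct
A core TCF/LEF element, the site of the Wnt pathway's transcription factors, was searched as CTTTGAT or CTTTGAA on both strands. It had 0 matches in all 5 windows, while 6.86% of all windows held it; this says only that these letters are not in these windows.

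**Figure D1:**
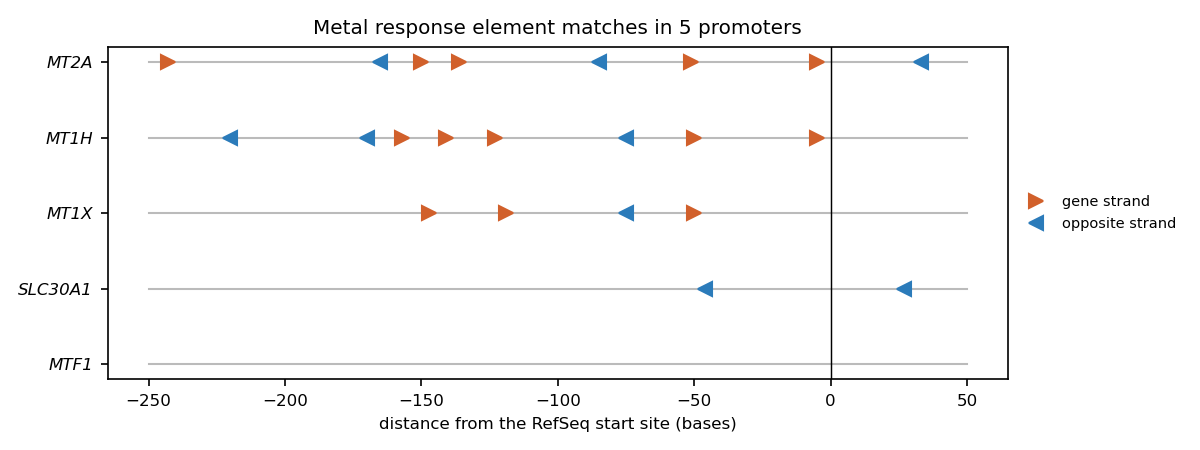
Matches to the core of the metal response element in the 5 RefSeq promoter windows, by distance of the middle base from the start site in bases (negative is upstream); triangles pointing right are on the gene strand and triangles pointing left on the opposite strand. MT2A and MT1H each carry 8 matches, MT1X 4, SLC30A1 2 and MTF1 0.

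Library totals ran from 28844348 to 42976799 expected counts. Inhibitor libraries had TMM scaling factors of 0.876 to 0.914 and 23279 to 23335 genes with a count, against factors of 1.02 to 1.10 and 25201 to 26876 genes in the other 6. Mitochondrial RNA took 3.85% to 5.12% of the counts, with overlap between the groups. Inhibitor replicate 1 stood apart from the other inhibitor libraries on the second principal component (score of -66.9 against 26.9 and 24.5), and values without it follow where they bear on a result. Summed over 7 Ewing sarcoma markers (CD99, NKX2-2 and FLI1 among them, none of the 7 at 0), CPM was 2156 to 2375 in vehicle, 1734 to 2014 in Wnt3a and 1567 to 1957 in inhibitor libraries. CD99 was the largest part of this sum (means of 1140, 931 and 976 CPM in the same order), followed by PRKCB (430, 344 and 427). Means were lowest under the inhibitor for NKX2-2 (99.7, 72.3 and 36.1), NR0B1 (387, 288 and 200), STEAP1 (125, 84.1 and 79.9) and LIPI (72.1, 67.3 and 42.9). The mean of FLI1 was highest there (46.5, 46.2 and 54.1). Summed endothelial markers stayed between 1.41 and 2.85 CPM, epithelial markers between 1.31 and 2.05, and leukocyte markers between 0.645 and 1.52, with CD3E at 0 in all libraries. The sum of 5 fibroblast markers moved with the groups, from 20.9 to 27.5 CPM in vehicle to 33.4 to 44.6 in Wnt3a and 47.7 to 53.5 in inhibitor libraries, none of the 5 at 0. LUM (means of 14.9, 27.0 and 35.0 CPM) and DCN (6.22, 7.36 and 11.3 CPM), which encode matrix proteoglycans, made up most of it, while PDGFRA, FAP and PDPN had means of 0.275 to 2.42 CPM that did not follow this order. Their part in the results was not tested.

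MT2A, the most abundant metallothionein of vehicle cells, was scarce relative to its level under the inhibitor. In TMM-scaled CPM (counts per library total, corrected for composition), it measured 12.0, 11.8 and 14.5 in vehicle replicates 1 to 3, 14.7, 8.91 and 15.4 in Wnt3a replicates and 257, 311 and 397 in inhibitor replicates. The inhibitor libraries all lay far above the others, which overlapped. Means were 12.8 ± 1.47 CPM in vehicle, 13.0 ± 3.58 in Wnt3a and 322 ± 70.3 in inhibitor cells (SD, n = 3 each). The edgeR log2 fold change of inhibitor over Wnt3a was 4.63 (SE 0.243), a 24.7-fold difference and rank 24 from the top among 17880 tested genes. By TPM, a unit that also divides by transcript length, MT2A ranked 2505 to 4052 among all genes in the 6 libraries without inhibitor and 136 to 182 with it.

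MT1X, the second most abundant, was the 1 member whose level already differed between vehicle and Wnt3a. It measured 4.92, 6.28 and 5.45 CPM in vehicle, 19.4, 12.3 and 15.0 CPM in Wnt3a and 141, 127 and 190 CPM in inhibitor replicates 1 to 3. The 3 groups formed 3 separate steps without overlap. Means were 5.55 ± 0.683, 15.6 ± 3.61 and 152 ± 33.1 CPM (SD, n = 3 each). Inhibitor over Wnt3a gave a log2 fold change of 3.29 (SE 0.206, 9.81-fold, rank 59 from the top) and inhibitor over vehicle one of 4.78 (SE 0.223, 27.4-fold).

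MT1E, MT1F and MT1G, isoforms that are barely present without the inhibitor, showed higher fold differences on much lower levels. MT1E measured 1.01, 0.581 and 0.972 CPM in vehicle, 1.17, 0.469 and 1.32 in Wnt3a and 17.6, 32.3 and 39.1 in inhibitor libraries. MT1F measured 0.731, 1.02 and 1.18 CPM in vehicle, 0.532, 0.670 and 1.05 in Wnt3a and 30.0, 45.7 and 59.6 in inhibitor libraries. MT1G measured 0.450, 0.194 and 0.179 CPM in vehicle, 0.203, 0.335 and 0.228 in Wnt3a and 25.4, 50.2 and 57.0 in inhibitor libraries. In each of these genes vehicle and Wnt3a overlapped, all inhibitor libraries lay above both, and inhibitor replicate 1 was the lowest of its group. The log2 fold changes of inhibitor over Wnt3a were 4.91 for MT1E (SE 0.428, 30.1-fold), 5.90 for MT1F (SE 0.340, 59.6-fold) and 7.41 for MT1G (SE 0.423, 170-fold, rank 11 from the top). MT1G rests on a sum of 33.56 counts in the 3 Wnt3a libraries against 4098.61 in the 3 inhibitor libraries. It passed the filter on low counts only through the inhibitor libraries, so a difference was a condition of its being tested. Without inhibitor replicate 1 the log2 fold changes of MT1E, MT1F and MT1G were 5.19, 6.13 and 7.69.

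MT1H and MT1M were listed at 0 in all 6 libraries without inhibitor. MT1H had expected counts of 14.16, 77.88 and 55.21 in inhibitor replicates 1 to 3, which is 0.531, 2.37 and 1.76 CPM. MT1M had expected counts of 14.33, 45.81 and 44.66, which is 0.531, 1.40 and 1.44 CPM. With 3 counts over a group as the limit that a count of 0 allows, MT1H was at least 69.5-fold higher than in Wnt3a cells and at least 62.9-fold higher than in vehicle cells. For MT1M the bounds were at least 49.5-fold and at least 44.7-fold. Of the 50-base windows, 15.8% in MT1H and 9.87% in MT1M occurred also in other genes, MT1G and MT1E among them. Some of their reads may thus belong to those genes, which the bounds do not cover. Leaving out 1 control library lowers a bound by construction, to no less than 45.2-fold and 40.5-fold for MT1H (without Wnt3a replicate 2 and vehicle replicate 2) and 32.2-fold and 28.84-fold for MT1M (without the same libraries). Both genes, like MT1G, passed the filter on low counts only through the inhibitor libraries, so a difference was a condition of their being tested. MT1A was not tested: it had 1.63 expected counts in vehicle replicate 3 and 0 in the other 8 libraries, inhibitor included.

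In all, 9 of the 10 members had every inhibitor library above every Wnt3a library, as did 27.8% of all tested genes. All 9 were also above every vehicle library, as were 28.5% of all tested genes. The edgeR fit called 50.4% of genes different between inhibitor and Wnt3a, 24.5% higher and 25.9% lower; the members were chosen on this contrast, so nothing is read from their count. These are bulk samples, in which more cells of a kind and more RNA per cell cannot be told apart.

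**Figure D2:**
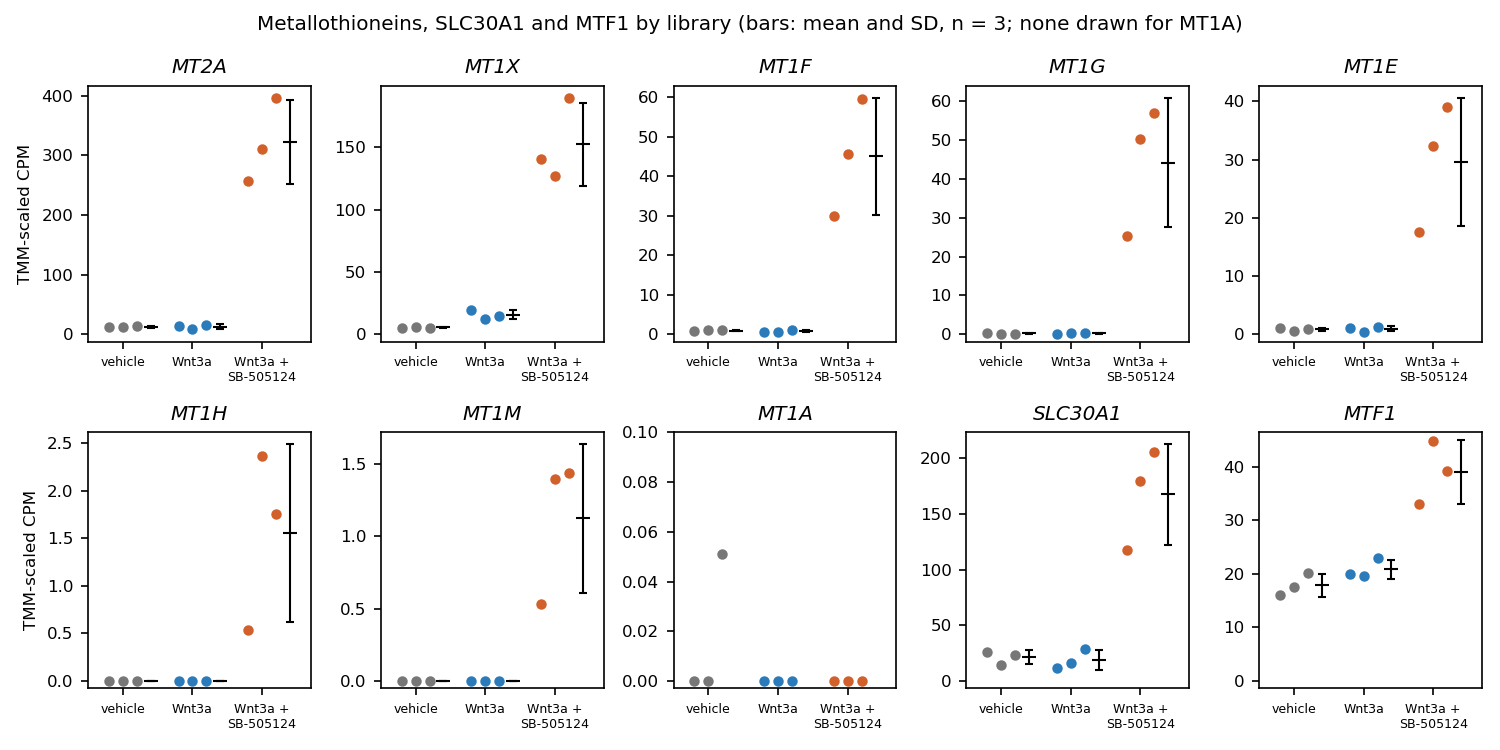
TMM-scaled CPM of each member in each of the 9 libraries (dots, replicates 1 to 3 from left to right in each group), with group mean and SD beside them (n = 3; none for MT1A), on linear axes that differ between panels. All members but MT1A sit highest in the 3 inhibitor libraries, and MT1X alone shows a middle step, at 12.3 to 19.4 CPM under Wnt3a against 4.92 to 6.28 in vehicle.

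Summed over the 8 metallothioneins, which sidesteps how reads were shared out among members of the list, the level was 19.1, 19.9 and 22.3 CPM in vehicle, 36.0, 22.6 and 33.0 in Wnt3a and 472, 570 and 746 in inhibitor libraries. The 3 groups did not overlap, though the highest vehicle library (22.3) and the lowest Wnt3a library (22.6) lay close together. Means were 20.4 ± 1.65, 30.6 ± 7.03 and 596 ± 139 CPM (SD, n = 3 each), and the log2 ratio of means was 4.29 for inhibitor over Wnt3a and 0.58 for Wnt3a over vehicle. Without inhibitor replicate 1 the first was 4.43. The step of the sum from vehicle to Wnt3a lay mostly in MT1X, with means of 5.55 and 15.6 CPM, beside 12.8 and 13.0 for MT2A. As a share of all TPM, metallothionein RNA took 0.00709% to 0.0137% in the 6 libraries without inhibitor and 0.145% to 0.232% with it.

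The make-up of the metallothionein pool also differed. By TPM, vehicle cells ranked MT2A first (48.7 ± 6.11), MT1X second (19.2 ± 2.17), then MT1E (3.35 ± 1.42), MT1F (2.92 ± 1.07) and MT1G (1.26 ± 0.461), with MT1E and MT1F within each other's spread. In Wnt3a cells MT1X (56.3 ± 12.8) and MT2A (51.9 ± 12.9) were within each other's spread. In inhibitor cells MT2A (1015 ± 235) stood above MT1X (446 ± 106), followed by MT1G (153 ± 52.0), MT1F (123 ± 39.9) and MT1E (94.1 ± 32.7), and by MT1H (5.003 ± 3.07) and MT1M (1.71 ± 0.776; SD, n = 3 for all). There MT1F lay within the spread of MT1G and MT1E within that of MT1F, and each of the 3 inhibitor libraries gave the order MT1G, MT1F, MT1E. MT1X made up 22.5% to 30.0% of the pool in vehicle, 43.1% to 51.5% in Wnt3a and 21.1% to 27.9% in inhibitor libraries. MT2A took 62.5% to 66.5%, 41.4% to 48.8% and 54.6% to 55.7% in the same order. The 6 other isoforms together took 7.54% to 11.6%, 5.47% to 8.04% and 16.5% to 23.3%. The share of MT1X was thus highest in the Wnt3a libraries without overlap, and that of the rarer isoforms highest in the inhibitor libraries without overlap.

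**Figure D3:**
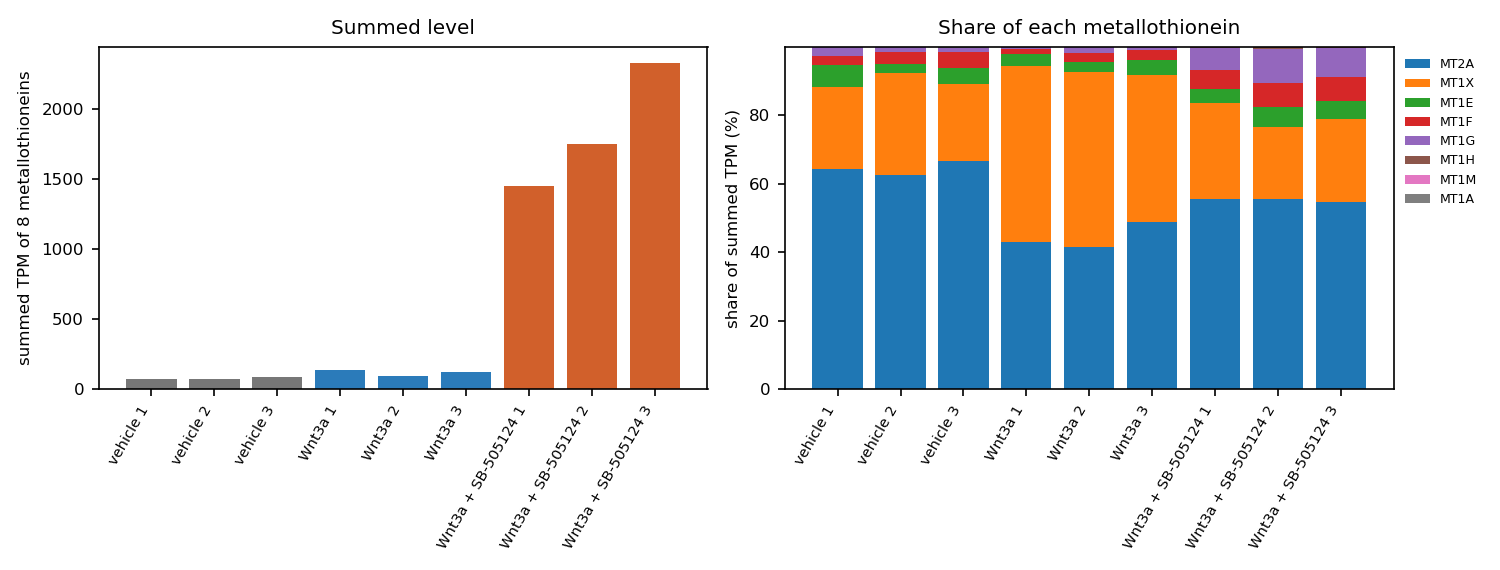
Left, summed TPM of the 8 metallothioneins in each library, as bars from 0; right, the share of each gene in that sum in percent. The left bars run from 70.9 to 137 without inhibitor and from 1449 to 2323 with it, and the share of MT1X is highest in the 3 Wnt3a libraries, at 43.1% to 51.5%.

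In Wnt3a against vehicle the members were tested, since the inhibitor libraries do not enter its difference. Those libraries do enter the estimate of spread that all groups share. The members were chosen with their levels across the groups in view, so these p-values are not independent of the choice. This comparison asks what the Wnt ligand does to these genes without the inhibitor. MT1H and MT1M had 0 counts in both groups and could not differ. Of the other 7 members tested, 1 was called, MT1X, where the edgeR fit called 0.419% of all genes, 0.397% higher and 0.0224% lower. MT1X rose by 1.48 on the log2 scale (SE 0.203), 2.80-fold (edgeR quasi-likelihood test, Benjamini-Hochberg adjusted p = 0.0130), with all 3 Wnt3a libraries above all 3 vehicle libraries, as in 9.34% of tested genes. This rise was known from earlier results on the same files, so its call is not independent evidence. Its log2 fold change ran from 1.29 to 1.63 over the alternatives, but the call was lost with limma-voom (adjusted p = 0.0573), without vehicle replicate 1 (adjusted p = 0.0951) and without vehicle replicate 3 (adjusted p = 0.0866), in a range of adjusted p from 4.29e-09 to 0.0951.

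The other members were not called under Wnt3a. The log2 fold change of MT2A over vehicle was 0.03 (SE 0.218, edgeR adjusted p = 0.988), that of MT1E 0.20 (SE 0.433, adjusted p = 0.957), that of MT1F -0.38 (SE 0.348, adjusted p = 0.888) and that of MT1G -0.07 (SE 0.543, adjusted p = 0.988). These p-values do not show that the levels were equal, and the standard errors of MT1E, MT1F and MT1G are wide. MT1G was tested here only because the inhibitor libraries carried it past the filter on low counts. Whether the response of MT1X differs from that of the other isoforms was not tested.

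**Figure D4:**
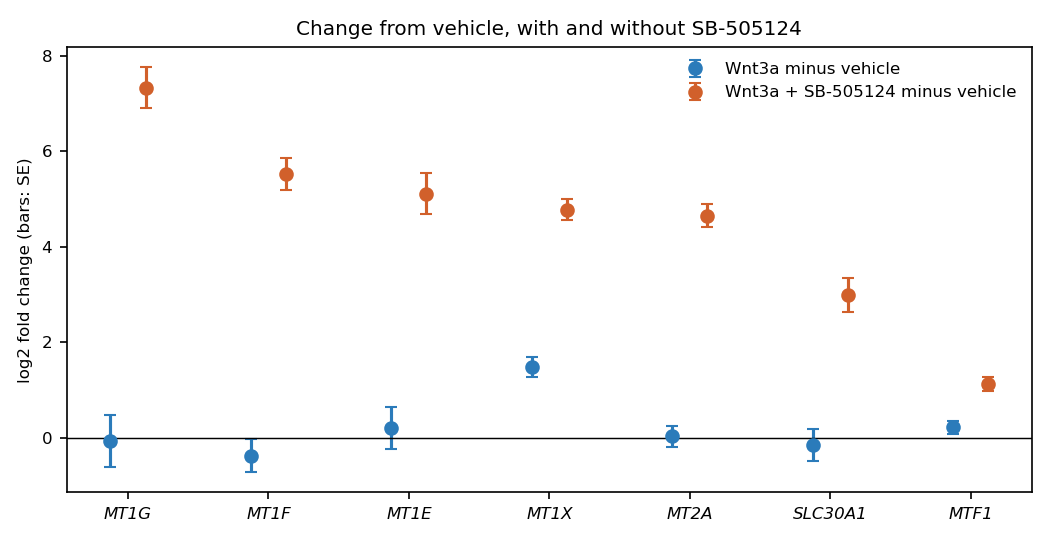
edgeR log2 fold changes from vehicle (points) with their SE (bars) for the 7 members with counts in all groups; blue is Wnt3a, orange Wnt3a with SB-505124. MT1X, at 1.48, is the blue point farthest from 0 and the only 1 called. The SE bars of MT1F and MTF1 in blue also miss 0, but neither was called. Orange points run from 1.12 for MTF1 to 7.34 for MT1G, and both colours share the vehicle libraries.

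SLC30A1, the zinc exporter and the other known target of MTF1 here, lies on chromosome 1 and thus outside the metallothionein cluster. It measured 26.3, 14.1 and 22.8 CPM in vehicle, 11.9, 15.8 and 28.9 in Wnt3a and 118, 180 and 206 in inhibitor libraries. Vehicle and Wnt3a overlapped widely and the inhibitor libraries lay above both. Inhibitor over Wnt3a gave a log2 fold change of 3.15 (SE 0.3596, 8.89-fold, rank 71 from the top) and inhibitor over vehicle one of 2.99 (SE 0.357). Under Wnt3a it was not called (log2 fold change -0.16, SE 0.338, edgeR adjusted p = 0.958). Per length its level was 5.58 ± 1.69 TPM in vehicle, 5.24 ± 2.35 in Wnt3a and 36.8 ± 10.4 in inhibitor cells (SD, n = 3 each).

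MTF1, the sensor itself, had the lowest fold difference of the 9 tested members. It measured 16.02, 17.4 and 20.2 CPM in vehicle, 19.9, 19.6 and 22.9 in Wnt3a and 33.1, 44.9 and 39.1 in inhibitor libraries. The inhibitor libraries did not overlap with the others. The log2 fold change was 0.91 over Wnt3a (SE 0.141, 1.88-fold) and 1.12 over vehicle (SE 0.142). Scaling to library totals in place of TMM gave 0.66 and 0.89, and log2(TPM + 1) gave 0.45 and 0.69. Under Wnt3a MTF1 was not called (log2 fold change 0.22, SE 0.141, edgeR adjusted p = 0.822). RNA level does not measure the zinc binding or the nuclear location of the protein.

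Library by library, the inhibitor values divided by the Wnt3a mean were 19.8, 23.9 and 30.5 for MT2A, 9.05, 8.15 and 12.2 for MT1X, 99.4, 197 and 223 for MT1G, 6.24, 9.52 and 10.9 for SLC30A1 and 1.59, 2.16 and 1.88 for MTF1. Inhibitor replicate 1, which stood apart from its group, was the lowest for all of these but MT1X, where replicate 2 was the lowest.

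The remaining metallothionein loci were mostly silent. Of 13 such genes and pseudogenes listed, 12 were in the tables and 2 passed the filter on low counts. Both passed through the inhibitor libraries alone, where they are high, so their values are given without a test. The processed pseudogene MT1P3, on chromosome 20, had 4.35, 5.54 and 0 expected counts in vehicle, 4.44, 3.62 and 0 in Wnt3a and 19.8, 56.6 and 32 in inhibitor libraries. MT1XP1 had 0 in vehicle, 2.48 counts in 1 Wnt3a library and 9.10, 22.0 and 27.4 in inhibitor libraries, at least 24.9-fold higher than in vehicle (at least 16.1-fold with vehicle replicate 2 left out). Both share windows with members, so their reads may belong to those.

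The other zinc transporters did not share the size of the differences in SLC30A1. Of 9 other exporters of the SLC30 family, 6 were tested, 0 rose and 1 fell under the inhibitor relative to Wnt3a, with a median log2 fold change of -0.19 against -0.06 for all tested genes. Of all tested genes 24.5% were called higher and 25.9% lower, and no list here or below was tested against these shares. The 1 that fell was SLC30A6, a transporter of the secretory pathway (log2 fold change -0.61, SE 0.143, edgeR adjusted p = 0.00542); SLC30A4 had a log2 fold change of -0.45 (SE 0.264, adjusted p = 0.179), which passed the threshold without inhibitor replicate 1 and with log2(TPM + 1). The count of 0 risers was 0 under library totals and 1 with log2(TPM + 1), with DESeq2 and without inhibitor replicate 1. The median without that replicate was 0.05, against -0.08 for all tested genes.

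Of 14 importers of the SLC39 family, which bring zinc into the cytosol, 11 were tested, and 3 rose and 4 fell (median log2 fold change -0.17). Among all tested genes 24.5% were called higher and 25.9% lower. When inhibitor replicate 1 was left out, the median was 0.05 and SLC39A11 was not called. The largest differences were in SLC39A14, a plasma membrane importer of zinc and iron (log2 fold change -0.62, SE 0.111, edgeR adjusted p = 0.00111), and SLC39A3 (-0.58, SE 0.192, adjusted p = 0.0276). The call of SLC39A3 was lost in a fit of the 2 groups alone (adjusted p = 0.0519) and without Wnt3a replicate 2 (0.0947) or 3 (0.0604). The other genes called, named after their values were seen, were SLC39A7 and SLC39A11, which were lower, and SLC39A1, SLC39A6 and SLC39A10, which were higher. The 3 rises were calls under TMM, size-factor and DESeq2 scaling, but 0 importers were called higher under library totals or log2(TPM + 1). With library totals the median of all tested genes moved from -0.06 to -0.31, and 30.6% of the calls across all genes were higher, against 48.6% with TMM; with log2(TPM + 1) the median was -0.23 and 26.5% were higher.

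Copper handling genes were listed because metallothioneins also bind copper. Of 9 tested, 2 rose and 2 fell (median log2 fold change 0.15), where 24.5% of all tested genes were called higher and 25.9% lower. The largest differences were in the copper exporter ATP7B (log2 fold change -0.91, SE 0.284, edgeR adjusted p = 0.0215) and in COX17, which carries copper to mitochondrial cytochrome oxidase (0.64, SE 0.111, adjusted p = 0.00101); COMMD1 was also called higher and the importer SLC31A1 lower, both named after their values were seen. For ATP7B the groups overlapped, and its call was lost with log2(TPM + 1) and without Wnt3a replicate 1 or 2 or inhibitor replicate 2 or 3 (adjusted p of 0.0609 to 0.0928).

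Genes that heavy metals and oxidants induce alongside metallothioneins did not move one way. Neither did the tested genes as a whole, of which 24.5% were called higher and 25.9% lower. Of 8 targets of NRF2, the main transcription factor of the oxidative stress response, 3 rose and 2 fell (median 0.20). HMOX1, the heme-degrading enzyme, rose by 1.23 on the log2 scale (SE 0.301, edgeR adjusted p = 0.00680) and OSGIN1 by 1.94 (SE 0.480, adjusted p = 0.00707), while SLC7A11, the cystine importer, fell by 1.36 on the log2 scale (SE 0.363, adjusted p = 0.0106); NQO1 was also called higher and SRXN1 lower, both named after their values were seen. Of 6 heat shock genes tested, 0 rose and 3 fell (median -0.57), the third being HSPH1. The chaperone genes HSPA1A and HSPA1B, near-identical copies whose reads cannot be told apart reliably, fell by 1.70 (SE 0.181, adjusted p = 5.47e-05) and 1.42 (SE 0.178, adjusted p = 0.000138) on the log2 scale; with size factors, with DESeq2 and without inhibitor replicate 1, BAG3 was called higher in addition. With library totals and with log2(TPM + 1), NQO1 lost its call as higher, GCLM and HSPB1 were called lower, and the NRF2 median was -0.05 and -0.12; with library totals the copper median was -0.10.

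Genes that glucocorticoids induce were listed because glucocorticoids also induce metallothioneins. Of 9 tested, 5 rose and 1 fell (median log2 fold change 1.17), where 24.5% of all tested genes were called higher and 25.9% lower (median -0.06). The phosphatase gene DUSP1 rose by 3.58 on the log2 scale (SE 0.142, edgeR adjusted p = 4.66e-07), the transcription factor CEBPD by 3.20 (SE 0.382, adjusted p = 0.000104), the clock gene PER1 by 1.64 (SE 0.123, adjusted p = 8.23e-06), the kinase gene SGK1 by 1.51 (SE 0.307, adjusted p = 0.00246) and KLF9 by 1.17 (SE 0.194, adjusted p = 0.000740). FKBP5, a co-chaperone of the glucocorticoid receptor and among its most used target genes, fell by 2.07 (SE 0.206, adjusted p = 3.62e-05), and TSC22D3, another such target, had a log2 fold change of 0.03 (SE 0.224, adjusted p = 0.930; named after its value was seen). The list thus ran from 3.58 for DUSP1 to -2.07 for FKBP5, with 5 genes called higher and 1 lower. What these genes respond to here was not tested.

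The genes beside the metallothionein cluster on chromosome 16 did not show differences of its size. Of 9 neighbours 7 were tested, and 3 rose and 1 fell (median log2 fold change 0.24), where 24.5% of all tested genes were called higher and 25.9% lower. The largest difference was in HERPUD1, a gene of the endoplasmic reticulum stress response (log2 fold change 0.79, SE 0.127, edgeR adjusted p = 0.000640). NUP93 was also called higher and OGFOD1 lower, both named after their values were seen. With library totals the list's median was -0.01 and 2 rose, and NUP93 was not called there or with log2(TPM + 1). When inhibitor replicate 1 was left out, the list's median was 0.04. In Wnt3a against vehicle, 0 genes of all 8 lists were called in either direction by the edgeR fit, which at an unadjusted p under 0.05 held 7.62% of all tested genes.

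**Figure D5:**
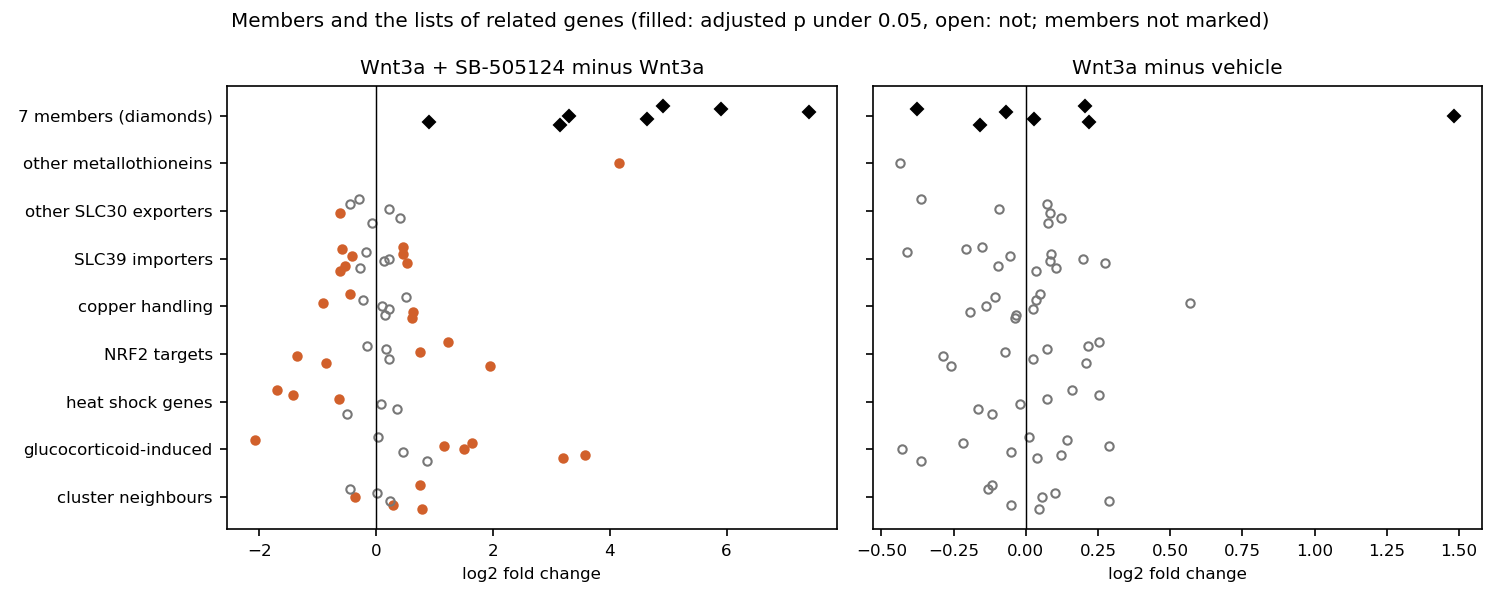
edgeR log2 fold changes of the 7 members with counts in all groups (diamonds) and of the tested genes of the 8 lists (circles, filled where the adjusted p was under 0.05). Inhibitor over Wnt3a is on the left and Wnt3a over vehicle on the right, on axes of different range. MT1XP1 is not drawn. MT1P3, the circle at 4.16 in the left panel, passed the filter only through the inhibitor libraries, so its fill is not read as a call. On the left the members run from 0.91 to 7.41 while the zinc transporters stay between -0.62 and 0.52; on the right no list gene is filled and MT1X stands at 1.48.

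The genes whose pattern over the 9 libraries was most like that of MT2A, by Euclidean distance of log2 CPM relative to each gene's vehicle mean among 11329 genes with a mean of at least 1 CPM, were SNAPC1 (distance 1.03), PLK2 (1.34), NECTIN4 (1.37), ARRDC4 (1.49) and IL7R (1.82). Their log2 fold changes of inhibitor over Wnt3a were 4.03, 4.25, 5.23, 3.86 and 3.62, and those of Wnt3a over vehicle 0.18, 0.13, 0.13, 0.05 and 0.75. SNAPC1 encodes a subunit of the complex that starts small nuclear RNA transcription, PLK2 a polo-like kinase, ARRDC4 an arrestin-domain protein and IL7R an interleukin receptor chain. For SLC30A1 they were CDKN1A (distance 0.669), FOS (0.924), KLF5 (1.06), CEBPD (1.10) and PLK3 (1.199). Their log2 fold changes of inhibitor over Wnt3a were 3.07, 2.69, 3.21, 3.20 and 3.04, beside 3.15 for SLC30A1. CDKN1A encodes the cell cycle inhibitor p21, and FOS, KLF5 and CEBPD are transcription factor genes that stimuli induce quickly. These genes were chosen for their likeness, so their values are a description.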

How the data were processed

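Each library was deposited as a gene table with RSEM expected counts, TPM and FPKM per the file headers; FPKM was not used. Per the submitters' processing notes, the tools were CASAVA 1.8.2, Trimmomatic 0.36, STAR 2.5.2a and RSEM 1.2.31 on hg38; neither their settings nor the annotation is given in those notes. The authors' expected counts, which share ambiguous reads among genes by an estimate, were rounded, and the authors' TPM (per length, so comparable between genes) were used as deposited. Genes were kept by edgeR's filterByExpr (17880 of 58233), scaled by TMM and fitted over all 9 libraries with edgeR 4.0.16 in R 4.3.3 (quasi-likelihood test, Benjamini-Hochberg adjustment, threshold 0.05, no covariate), with 6 residual degrees of freedom. DESeq2 1.42.0 and limma 3.58.1 gave alternatives. The procedure was also run on simulated counts in which few genes changed, equally up and down. That setting does not check the scaling or the calls where as many genes differ as under the inhibitor. Positions and coding sequences came from GENCODE 29 and promoters from RefSeq. The members, gene lists and markers were chosen with earlier results of these data known. All 10 members are named, as are, per list, the genes called with a log2 fold change of at least 1 in size, or otherwise the 2 with the largest difference; 1 neighbour gene that this rule names is not reported here. Bounds against a count of 0 cover counting error only.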

Additional observations from a re-analysis of the deposited data

How the results depend on the processing

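Across 18 alternatives (other scaling, filters, tools, units, a fit on 2 groups alone, a replicate block, each library left out), the number of genes called between inhibitor and Wnt3a stayed between 7411 and 9613 (9013 as reported) and that between inhibitor and vehicle between 7575 and 9272 (8895). The number called between Wnt3a and vehicle, 75, was less stable. It was 259 when all genes with at least 1 count were kept and 299 with DESeq2, and ran from 20 to 140 when 1 library was left out, with 20 without vehicle replicate 3, 26 without vehicle replicate 1, 32 without Wnt3a replicate 2, 47 without Wnt3a replicate 1, 48 without vehicle replicate 2 and 140 without inhibitor replicate 1; the cause was not tested. The log2 ratio of the summed metallothioneins ran from 3.98 to 4.43 for inhibitor over Wnt3a, from 0.446 to 0.758 for Wnt3a over vehicle and from 4.61 to 5.01 for inhibitor over vehicle. No called member changed direction. With log2(TPM + 1), which understates low genes by construction, the log2 fold change of inhibitor over Wnt3a was 6.14 for MT1G, 5.04 for MT1F and 2.96 for MT1X. Between inhibitor and vehicle, the calls were 50.2% higher with TMM, 33.6% with library totals and 33.3% with log2(TPM + 1).

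Libraries with the same replicate number did not deviate together throughout: the correlations of their deviations were 0.325, -0.165 and 0.205 for inhibitor and Wnt3a, 0.0146, 0.416 and 0.353 for Wnt3a and vehicle, and -0.0329, -0.182 and 0.0819 for inhibitor and vehicle, and not every library correlated best with its own number. The fit with the replicate block called 9166, 79 and 9039 genes for inhibitor over Wnt3a, Wnt3a over vehicle and inhibitor over vehicle. Depth limits MT1A, MT1H and MT1M, whose values without inhibitor are at or near 0 counts, and the rarer isoforms under Wnt3a.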
